A study of Mus musculus with 8 samples.

Results

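Cytochrome c oxidase, complex IV of the respiratory chain, passes electrons from cytochrome c to oxygen in the inner membrane of the mitochondrion. Its catalytic core is encoded by mitochondrial DNA, and the surrounding subunits are encoded in the nucleus. For several nuclear subunits, mammals carry a form found in most tissues and a paired form restricted to a few. The 10 genes described here make up 5 such pairs: Cox4i1 with Cox4i2, Cox6a1 with Cox6a2, Cox6b1 with Cox6b2, Cox7a2 with Cox7a1, and Cox8a with Cox8b, the ubiquitous form first in each. Of the restricted forms, Cox6a2, Cox7a1 and Cox8b are known from heart and skeletal muscle, Cox8b also from brown fat, Cox4i2 from lung and pericytes, and Cox6b2 from testis. The genes were found by their symbols among the 24972 symbols of the deposited files, and all 10 were present.

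The values come from PhosphoTrap of the mouse lateral septum. Phosphorylation of ribosomal protein S6 (pS6) follows neuronal activity, and ribosomes with this mark were captured with 4 ug of a polyclonal antibody on magnetic beads. The RNA they held (IP) was sequenced beside RNA saved from the lysate before the capture (input). All mice were C57Bl/6J without a stated transgene, and the study's methods give an age of 8 to 20 weeks for its mice. Naive mice stayed in the home cage and restraint-stressed (RS) mice spent 1 h in a flexible restraint cone. The labels place the killing 1 h after restraint, and the methods place it after the stress without an interval. The 8 libraries formed 4 groups of 2, input and IP of naive mice, and input and IP of RS mice. Each library came from a pool of 4 to 6 mice, so n counts pools, and a lysate of the whole dissected septum holds all of its cell types.

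Values are used as TPM, transcripts per 1000000 transcripts, a scale meant to correct for transcript length. How length was scaled in the deposited values is not stated. In RS input pool 2, Cox4i2 (733 bases) and Cox6b2 (585 bases) had the same value of 4.6771, and Crabp2 and Higd1b shared 8.15189 in naive input pool 1. Whether short genes were scaled by their own length is therefore not known, a limit on comparing levels between genes and shares within a pair. Each library listed 17292 to 17516 genes above 0. The depth is unknown, since no numbers of reads are stated, and no counting interval is given. All 10 members had at least 1 TPM in at least 2 libraries, the filter used here, and each still did when any single group was left out. The 9 genes listed as markers of lateral septal GABAergic neurons, Gad1, Gad2 and Slc32a1 among them, all passed the filter, with summed levels of 900 to 978 TPM in input and 1156 to 1281 TPM in IP. Sst made up 416 to 536 TPM of that sum in input and 815 to 913 TPM in IP. Gad1 and Gad2 averaged 242 and 59.1 TPM in naive input and 196 and 34.6 TPM in naive IP. By limma at an adjusted p under 0.05, 2 of the 9 were called higher and 3 lower in naive IP against input. In RS mice 3 were called higher and 3 lower. The members were chosen by symbol after the TPM and the log2 changes of these 8 libraries were known, from a rule that covers all 4 groups. Their levels and changes are therefore a description and carry no p-value. Genes outside the pairs are given with p-values, but their lists were also drawn up with earlier results of these data known. From most of these lists, genes were named for the largest moderated statistics in these same libraries. Their p-values are therefore not those of unselected genes.

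The pairs are separate genes with distinct sequences, which bears on whether reads can be assigned to each form. In the RefSeq annotation of build GRCm38.p6, 5 of the 10 genes lie on chromosome 7: Cox6b2 at 4751792 to 4753094, Cox7a1 at 30184171 to 30186030, Cox6b1 at 30616971 to 30626114, Cox6a2 at 128205435 to 128206366 and Cox8b at 140898942 to 140900446. Cox4i2 lies on chromosome 2 (152753916 to 152765039), Cox6a1 on chromosome 5 (115345652 to 115348958), Cox4i1 on chromosome 8 (120668225 to 120674209), Cox7a2 on chromosome 9 (79755241 to 79771422) and Cox8a on chromosome 19 (7215158 to 7217616). Sequences and overlaps with other genes were taken from the GENCODE annotation. The coding sequences of a pair were 57.4% (Cox8) to 66.3% (Cox4) identical, and the partners shared 0 stretches of 31 bases. The restricted forms shared no such stretch with any other annotated gene. Of the ubiquitous forms, Cox6a1 shared 23.8% of its 31-base stretches with the transcript AC148174.2, Cox6b1 shared 2.72% with the pseudogene Gm38305, and Cox7a2 shared 4.13% with the pseudogene Gm13433, so their levels are less certain. Cox6a2 overlaps Itgad on the other strand by 953 bases, and Itgad stood at 0.154 to 0.721 TPM. Cox4i1 lies within Gm20388, an annotated protein-coding gene on the same strand that spans 5986 of its bases and is not among the symbols of the files used here, so how its reads were assigned is not known. It also overlaps Emc8, at 30.5 to 62.5 TPM, on the other strand by 352 bases, and the kit is not stated to keep strand. All 10 transcripts are short, at 360 bases (Cox8b) to 765 bases (Cox4i1).

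The sequence before the start site of each partner is shown for the 3 pairs in which the balance of the forms differed most between naive and RS mice in the IP. RefSeq promoter entries of build GRCm38.p6 matched 7 of the 10 members. The 250 bases before the start are printed 5′ to 3′ in the direction of the gene, with capitals on matches, on either strand, to any of 6 motifs. The first of these motifs is the TATA box, searched as TATAAA. The second is the NRF1 site of 10 letters, given by name, and the third the core of sites for ETS factors, searched as CCGGAA. The other three are the E-box as CAGCTG, the CCAAT box as spelled in its name, and the half-site of the cyclic AMP response element as TGACG. The promoter entry of Cox7a2 places its start inside the span of the gene given above. These windows are Cox8b (chr7:140900447-140900696, minus strand), Cox8a (chr19:7217617-7217866, minus strand), Cox7a1 (chr7:30183921-30184170, plus strand), Cox7a2 (chr9:79759854-79760103, minus strand), Cox6b2 (chr7:4753095-4753344, minus strand) and Cox6b1 (chr7:30626115-30626364, minus strand).
Cox8b: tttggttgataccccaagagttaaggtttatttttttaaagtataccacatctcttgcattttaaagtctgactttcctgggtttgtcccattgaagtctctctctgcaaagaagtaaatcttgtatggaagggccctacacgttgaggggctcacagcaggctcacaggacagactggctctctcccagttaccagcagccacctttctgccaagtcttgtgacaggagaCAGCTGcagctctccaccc
Cox8a: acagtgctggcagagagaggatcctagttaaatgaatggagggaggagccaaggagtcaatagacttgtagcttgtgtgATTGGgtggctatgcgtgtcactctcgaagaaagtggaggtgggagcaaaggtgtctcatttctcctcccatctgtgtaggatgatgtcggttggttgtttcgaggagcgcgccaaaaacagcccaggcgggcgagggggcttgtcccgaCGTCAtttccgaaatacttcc
Cox7a1: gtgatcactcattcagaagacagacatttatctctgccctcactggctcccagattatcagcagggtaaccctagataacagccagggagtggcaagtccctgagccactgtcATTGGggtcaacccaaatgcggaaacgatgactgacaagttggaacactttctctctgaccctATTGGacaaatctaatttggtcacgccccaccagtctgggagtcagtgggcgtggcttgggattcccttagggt
Cox7a2: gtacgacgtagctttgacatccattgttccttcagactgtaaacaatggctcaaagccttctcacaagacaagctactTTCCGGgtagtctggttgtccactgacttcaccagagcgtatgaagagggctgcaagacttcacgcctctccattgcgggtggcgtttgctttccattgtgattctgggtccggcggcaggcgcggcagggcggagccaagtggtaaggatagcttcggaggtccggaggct
Cox6b2: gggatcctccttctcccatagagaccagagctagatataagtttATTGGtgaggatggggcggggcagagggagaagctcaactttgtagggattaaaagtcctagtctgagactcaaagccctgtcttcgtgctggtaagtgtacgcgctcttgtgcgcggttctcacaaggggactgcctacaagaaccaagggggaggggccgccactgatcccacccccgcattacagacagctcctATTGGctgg
Cox6b1: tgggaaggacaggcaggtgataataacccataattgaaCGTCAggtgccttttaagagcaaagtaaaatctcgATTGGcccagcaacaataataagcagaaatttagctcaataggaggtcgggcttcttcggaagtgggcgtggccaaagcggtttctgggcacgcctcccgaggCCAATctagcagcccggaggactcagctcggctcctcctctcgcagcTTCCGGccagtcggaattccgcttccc

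The windows of partners held different matches. Cox8b held only an E-box, at -19 to -14 from the start, and Cox8a held a CCAAT box and a TGACG half-site. Cox7a1 and Cox6b2 each held CCAAT boxes alone. The ETS core, which is part of many promoters of nuclear genes for respiratory subunits, was in the windows of Cox6a1, Cox6b1 and Cox7a2, in that of none of the 3 restricted forms with an entry, and in 12.03% of the 32851 promoter windows of the table. NRF1, a factor known for its sites in promoters of respiratory genes, had matches only in the Cox6a1 window among the 7, and its site was in 3.74% of all windows. The shares of all windows were 13.0% for the E-box, 33.8% for the CCAAT box, 17.8% for the TGACG half-site and 12.4% for TATAAA, which none of the 7 held. These matches describe letters in a fixed window, and binding was not measured.

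In every library the ubiquitous form of each pair was far above its restricted partner. Cox4i1, a ubiquitous subunit needed early in the assembly of the complex, stood at 2223 and 2316 TPM (naive input), 1453 and 1743 (RS input), 3579 and 3472 (naive IP) and 3344 and 3400 (RS IP). Cox8a, the ubiquitous form of a small membrane subunit, stood at 2245 and 2294, 1284 and 1620, 3062 and 3074, and 3244 and 3215 TPM in the same order. Cox6b1, which faces the intermembrane space, had 1574 and 1624, 877 and 1095, 3424 and 3297, and 3122 and 3179 TPM. All 3 genes were lowest in the RS input libraries and highest in the IP libraries, with no overlap between input and IP in either condition.

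Cox6a1, a ubiquitous form of a subunit with a regulatory role, had 1554 and 1522 TPM (naive input), 1032 and 1184 (RS input), 2460 and 2403 (naive IP) and 2379 and 2463 (RS IP). Cox7a2, the lowest of the 5 ubiquitous forms in every group, had 870 and 891, 433 and 551, 1935 and 1972, and 1825 and 1759 TPM in the same order. The naive and RS IP libraries of Cox6a1 overlapped, and those of Cox7a2 lay apart by a small step. By group mean, Cox8a and Cox4i1 shared the top of naive input, at 2269 TPM each, and their libraries overlapped. In both IP groups Cox4i1 stood first, at 3525 ± 75.2 TPM (SD, n = 2 pools) in naive IP and 3372 ± 39.6 TPM (SD, n = 2) in RS IP.

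The restricted forms ranged from 0 to 87.1 TPM. Cox6a2, in mice also reported in parvalbumin interneurons, was the highest of them in 3 of the 4 groups, with 31.3 and 27.1 TPM (naive input), 20.5 and 24.1 (RS input), 52.9 and 60.6 (naive IP) and 64.6 and 66.4 (RS IP). The 4 groups of Cox6a2 did not overlap. Cox6b2, the testis form, had 11.9 and 10.9 TPM (naive input), 4.72 and 4.68 (RS input), 20.01 and 15.7 (naive IP) and 28.4 and 31.7 (RS IP), again without overlap. Cox7a1, the heart and muscle form of its subunit, had 7.53 and 15.1 TPM (naive input), 5.04 and 4.50 (RS input), 26.4 and 17.4 (naive IP) and 38.9 and 42.0 (RS IP). The 2 pools of Cox7a1 lay far apart in naive input, and its groups still did not overlap.

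Cox4i2, the form that in other tissues rises when oxygen is low, was low throughout, at 4.19 and 2.78 TPM (naive input), 3.07 and 4.68 (RS input), 5.13 and 3.58 (naive IP) and 5.17 and 5.82 (RS IP). Its RS IP libraries lay just above the other 6, and its other groups overlapped. Cox8b was listed at 0 and 2.81 TPM (naive input), 7.77 and 4.10 (RS input), 2.08 and 4.79 (naive IP) and 85.3 and 87.1 (RS IP). Cox8b was therefore high in both RS IP libraries and below 8 TPM in the other 6, where naive IP overlapped both input groups. In RS IP its mean of 86.2 ± 1.32 TPM (SD, n = 2) placed Cox8b above Cox6a2, at 65.5 ± 1.32 TPM (SD, n = 2), and in sixth place among the 10 members, whereas it stood last in naive input and naive IP.

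**Figure D1:**
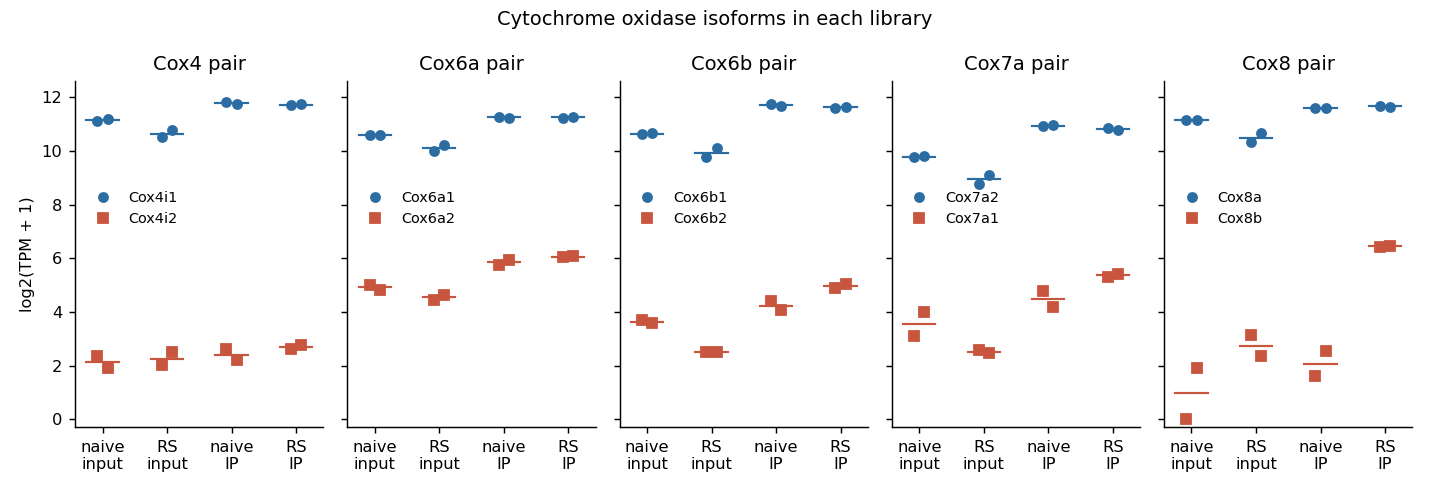
Level of each isoform in each library as log2(TPM + 1), by pair. Blue circles are the ubiquitous and red squares the restricted forms, each point is 1 pool and bars are group means; the ubiquitous forms lie above their partners in all 8 libraries, and Cox8b reaches 85.3 and 87.1 TPM in RS IP only.

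The share of the restricted form in its pair shows the balance of the isoforms apart from changes common to both. Cox8b made up 0 and 0.122% of the Cox8 pair in naive input, 0.601% and 0.253% in RS input, 0.0680% and 0.156% in naive IP and 2.56% and 2.64% in RS IP. Cox7a1 made up 0.859% and 1.66% of its pair in naive input, 1.15% and 0.810% in RS input, 1.35% and 0.875% in naive IP and 2.09% and 2.33% in RS IP. Cox6b2 made up 0.750% and 0.667%, 0.536% and 0.425%, 0.581% and 0.474%, and 0.902% and 0.988% in the same order. For these 3 pairs the share was highest in both RS IP libraries, by a wide margin only for Cox8.

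Cox6a2 held 1.97% and 1.75% of its pair in naive input, 1.95% and 1.99% in RS input, 2.10% and 2.46% in naive IP and 2.64% and 2.63% in RS IP, a narrow range in which RS IP was again highest. Cox4i2 differed from the other 4 restricted forms, since its share was highest in RS input, at 0.211% and 0.268%, against 0.188% and 0.120% in naive input, 0.143% and 0.103% in naive IP and 0.154% and 0.171% in RS IP. The restricted forms thus added at most 2.64% to any pair in any library, and the summed level of a pair followed its ubiquitous form. In the Cox8 pair the sum was 2271 ± 36.9 TPM (naive input), 1458 ± 235 TPM (RS input), 3072 ± 10.1 TPM (naive IP) and 3316 ± 18.8 TPM (RS IP), each as mean ± SD with n = 2.

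**Figure D2:**
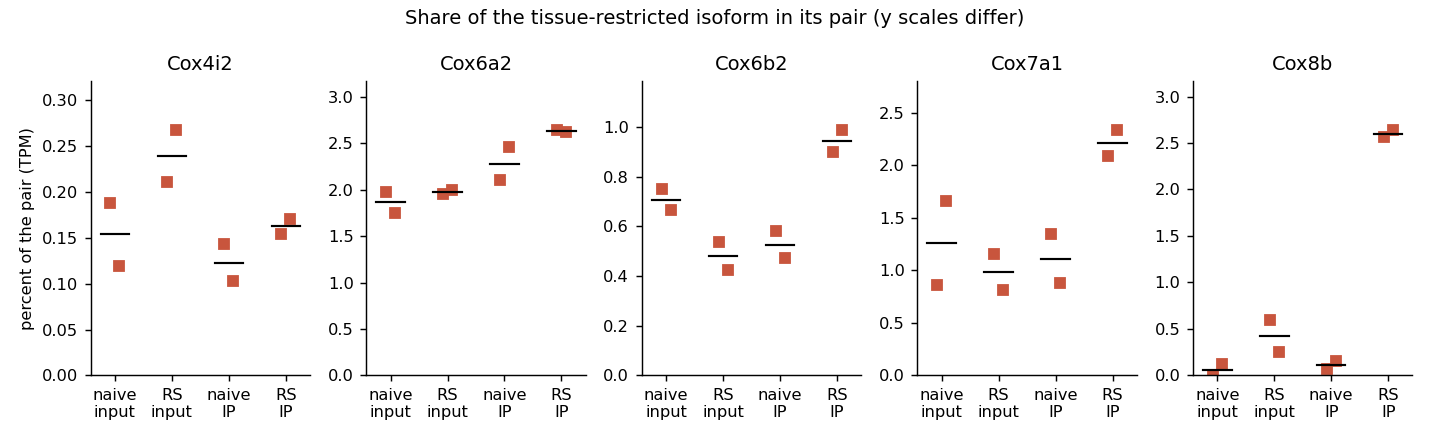
Share of the restricted form in the summed TPM of its pair, in percent, for each library (squares) with group means (bars); y scales differ between panels. In RS IP the shares of Cox6a2, Cox6b2, Cox7a1 and Cox8b are above those of the other 6 libraries, while the share of Cox4i2 is highest in RS input.

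The log2 ratio of restricted to ubiquitous form, each with 1 TPM added, measures the same balance. Between naive and RS mice in the IP the ratio was higher by 4.29 (SD 0.64) for Cox8, 1.01 (SD 0.44) for Cox7a, 0.82 (SD 0.22) for Cox6b, 0.36 (SD 0.28) for Cox4 and 0.21 (SD 0.16) for Cox6a, with n = 2 pools per group and no overlap of the groups in any pair. In the input the ratio was higher in RS mice for Cox8 (2.43, SD 1.56) and Cox4 (0.63, SD 0.40) and lower for Cox6b (-0.41, SD 0.26). The differences of Cox6a (0.10, SD 0.12) and Cox7a (-0.17, SD 0.71) were smaller in size than their SD. Of the input groups only those of Cox7a overlapped. Each SD of a difference, in IP and input, is the root of the summed squares of the SDs of both groups. The pairs Cox6b and Cox7a therefore lay further to the restricted form in RS IP without such a difference in RS input. With single libraries left out, the Cox7a difference in the input ran from -0.61 to 0.27. With 5 TPM added in place of 1, the Cox8 difference in the IP was 3.38 and the Cox6b difference in the input was -0.05.

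The first comparison asks which RNAs were held by phosphorylated ribosomes in resting mice. In naive mice all 10 members were higher in IP than in input. The log2 change was 1.15 ± 0.09 (SE) for Cox7a2, 1.07 ± 0.09 for Cox6b1, 0.66 ± 0.06 for Cox6a1, 0.64 ± 0.07 for Cox4i1 and 0.44 ± 0.09 for Cox8a. For the restricted forms it was 1.11 ± 0.58 for Cox8b, 0.94 ± 0.29 for Cox7a1, 0.93 ± 0.11 for Cox6a2, 0.60 ± 0.13 for Cox6b2 and 0.26 ± 0.23 for Cox4i2. The ranges of both classes overlapped, and Cox4i2 and Cox8b, with the largest errors beside Cox7a1, were the members not called. In such bulk samples fewer cells of a type and less RNA per cell cannot be told apart.

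Across the 14365 genes tested, the median change in that comparison was -0.32, so the members stood 0.58 to 1.47 above it. By limma at an adjusted p under 0.05, 17.4% of all genes were called higher in naive IP and 49.2% lower. Under median-of-ratios scaling, which raises the median by 0.32, the counts of all genes were 4446 higher and 4105 lower against 2504 and 7061. Of the members, 8 of 10 were called higher, all 5 ubiquitous forms and Cox6a2, Cox6b2 and Cox7a1, and the groups of 8 did not overlap, against 24.3% of all genes in that direction and 59.5% in the other. Nothing is read from these counts, since the comparison is among those that led to the choice of the genes. With input and IP of a pool kept as a block, Cox8b was called as well, at the same change of 1.11 ± 0.29 (SE). Without naive input pool 1 or naive IP pool 1 the change of Cox7a1 was 0.48 or 0.65 and it was no longer called, and without naive input pool 2, the change of Cox8b was 2.08 and it was called.

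In RS mice the IP held still more of these RNAs relative to input, and Cox8b, Cox7a1 and Cox6b2 led, whereas Cox4i2 had the lowest change of the 10. The log2 change was 3.70 ± 0.58 (SE) for Cox8b, 2.85 ± 0.29 for Cox7a1, 2.44 ± 0.13 for Cox6b2, 1.52 ± 0.11 for Cox6a2 and 0.43 ± 0.23 for Cox4i2. Among the ubiquitous forms it ran from 1.08 ± 0.07 for Cox4i1 to 1.87 ± 0.09 for Cox7a2. By size of change Cox8b ranked 14th, Cox7a1 21st and Cox6b2 33rd among the 14365 genes, and the highest ubiquitous form, Cox7a2, ranked 100th. The members stood 0.86 to 4.13 above the median of all genes, which was -0.42.

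Of the 10 members, 9 were called higher in RS IP, where 17.8% of all genes were, and 54.9% of all genes were called lower. Under median-of-ratios scaling 4804 genes were called higher and 4472 lower, against 2563 and 7891. The groups of all 10 members did not overlap, as for 23.2% of all genes in that direction and 62.5% in the other. Cox4i2 was the member not called, and it was called with the pool as a block (0.43 ± 0.14 SE) and without RS input pool 2 (0.67). When the trend of each library with transcript length and GC content was removed, the changes of the ubiquitous forms shrank to between 0.45 and 1.08 in RS mice and between 0.13 and 0.72 in naive mice, Cox8b kept 3.00, and that of Cox4i2 turned to -0.17 and -0.05. In naive mice this ended the calls of Cox8a (0.13) and Cox7a1 (0.67) and left 6 members called.

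**Figure D3:**
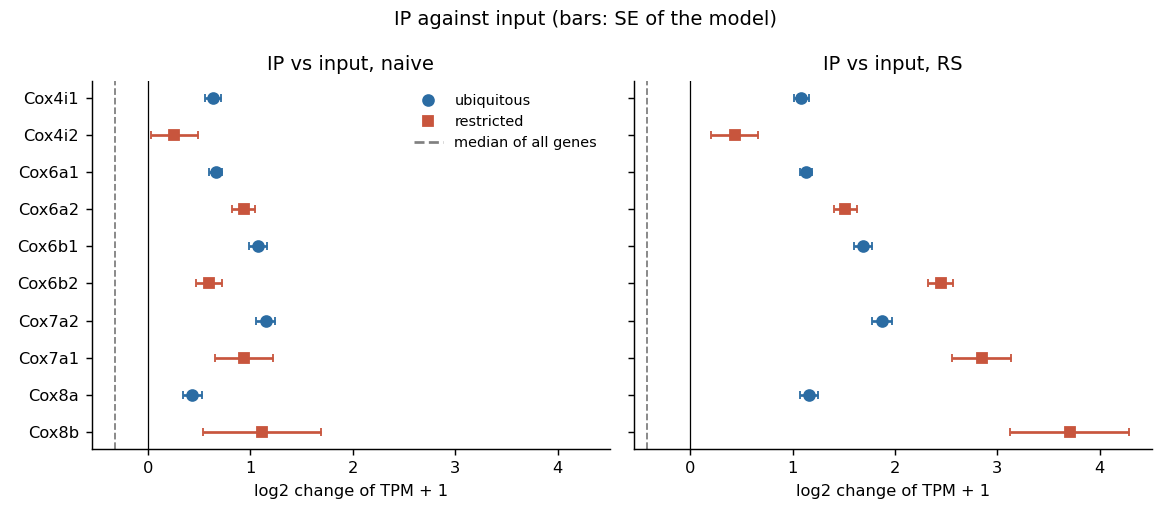
Log2 change of TPM + 1 between IP and input for each member, in naive mice on the left and RS mice on the right, with the standard error of the model; blue circles are ubiquitous and red squares restricted forms, and the dashed line is the median of all genes tested. The classes overlap in naive mice, and in RS mice Cox6b2, Cox7a1 and Cox8b stand right of every ubiquitous form.

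The difference between the IP to input changes of RS and naive mice was above 0 for all 10 members. It was 2.59 ± 0.82 (SE) for Cox8b, 1.91 ± 0.40 for Cox7a1 and 1.85 ± 0.18 for Cox6b2. The other members had smaller differences, from 0.17 ± 0.32 for Cox4i2 to 0.73 ± 0.13 for Cox8a, beside a median of -0.11 over all genes. Of the members 7 were called higher, where 3.29% of all genes were, and 3.46% were called lower. With the pool as a block only Cox6b2 was called, as without the filter, after the length and GC correction and without the trend in eBayes, and leaving out a library left 1 to 7 members called, Cox6b2 each time: 1 without naive input pool 2, either naive IP pool or either RS IP pool, 2 without naive input pool 1, 6 without RS input pool 1 and 7 without RS input pool 2. For the ubiquitous forms, the RS IP libraries were close to the naive IP libraries, and the difference came with lower RS input values.

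Against naive mice, the RS IP held similar levels of the ubiquitous forms. Their log2 changes were -0.12 ± 0.09 (SE) for Cox7a2, -0.09 ± 0.09 for Cox6b1, -0.06 ± 0.07 for Cox4i1, -0.01 ± 0.06 for Cox6a1 and 0.07 ± 0.09 for Cox8a, beside a median of 0.01 over all genes. The restricted forms all lay above 0, at 4.37 ± 0.58 for Cox8b, 0.88 ± 0.29 for Cox7a1, 0.73 ± 0.13 for Cox6b2, 0.29 ± 0.23 for Cox4i2 and 0.21 ± 0.11 for Cox6a2. The classes did not overlap in this comparison. The change of Cox8b was the 4th highest of 14365 genes, after Ttr, 2900040C04Rik and Mir762, which are named here after their values were seen. As a ratio of mean TPM, Cox8b was 25.1-fold higher.

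By limma 1.98% of all genes were called higher in RS IP than in naive IP and 0.327% lower. Cox8b and Cox6b2 were the members called, and the groups of all 5 restricted forms did not overlap, beside 25.1% of all genes in that direction. Cox8a was also above naive IP in both pools, and Cox4i1, Cox6b1 and Cox7a2 were below, as were 21.2% of all genes. The call of Cox8b was lost without naive IP pool 1 (change 3.91) or either RS IP pool (4.38 and 4.35), and with 0.1 TPM added in place of 1 (4.72). That of Cox6b2 was lost without naive IP pool 2 (0.56) or either RS IP pool (0.81 and 0.65), without the filter and without the trend in eBayes.

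In the input, which holds RNA of the whole lysate, most members were lower in RS than in naive mice. The 5 ubiquitous forms differed by log2 changes of -0.48 ± 0.06 (SE) for Cox6a1 to -0.85 ± 0.09 for Cox7a2, and their groups did not overlap. Cox6b2 (-1.12 ± 0.13), Cox7a1 (-1.02 ± 0.29) and Cox6a2 (-0.38 ± 0.11) were lower as well. Cox4i2 (0.12 ± 0.23) was within its error, and Cox8b (1.78 ± 0.58) was higher in both RS pools than in both naive pools. The median over all genes was 0.13.

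Of the members 8 were called lower in RS input, where 8.21% of all genes were called lower and 20.3% higher; under median-of-ratios scaling 1789 genes were called lower and 1111 higher, against 1179 and 2917. Groups did not overlap for 8 members in the lower direction, as for 19.3% of all genes, and for Cox8b in the higher direction, as for 48.8%. For all 5 ubiquitous forms the RS input pools differed more than the pools of any other group, with Cox8a at 1452 ± 238 TPM there against 2269 ± 34.9 TPM in naive input (SD, n = 2). After removal of the length and GC trend the ubiquitous forms differed by -0.15 to -0.47, still lower, and Cox6a2 by -0.01 and Cox7a1 by -0.61, both no longer called. Both calls were also lost without the filter and without the trend in eBayes. The call of Cox6a2 was lost without naive input pool 1 (-0.28) or RS input pool 1 (-0.26), that of Cox7a1 without naive input pool 2 (-0.57) or either RS input pool (-1.09 and -0.95), and Cox8b was called without naive input pool 2 (2.74). With the size of the change kept, the call of Cox6a2 was also lost without either RS IP pool, and that of Cox7a1 without RS IP pool 1.

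**Figure D4:**
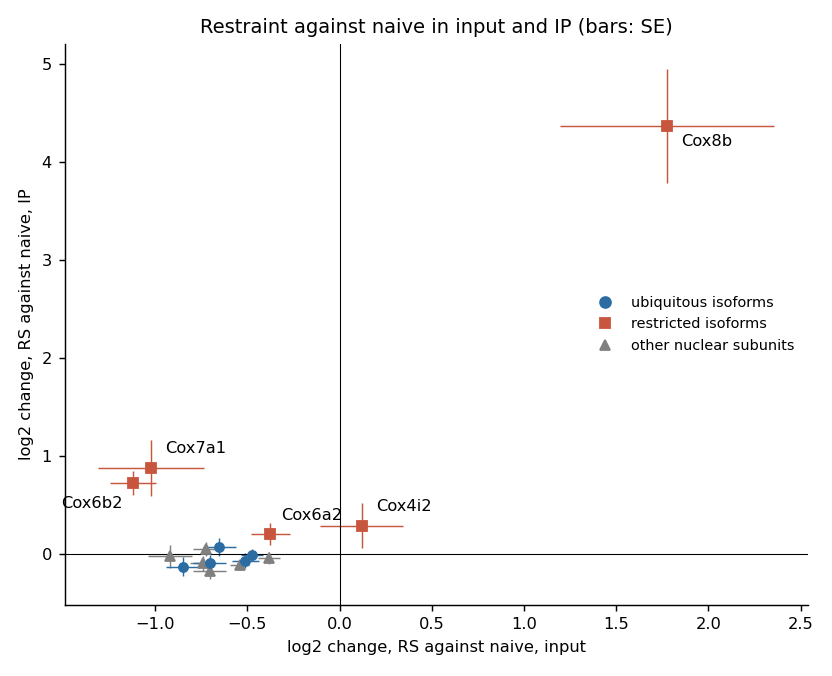
Log2 change of TPM + 1 between RS and naive mice in input (horizontal) and in IP (vertical), with standard errors, for ubiquitous forms (blue circles), restricted forms (red squares, named) and other nuclear subunits (grey triangles). Ubiquitous forms and other nuclear subunits lie together, lower in RS input and near 0 in IP, whereas Cox6b2, Cox7a1 and Cox8b lie at 0.73 to 4.37 on the IP axis.

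Nuclear subunits outside the 5 pairs were tested beside the members. Of these other nuclear subunits, Cox7b and Ndufa4 also have a relative each, Cox7b2 and Ndufa4l2, which were below 5 TPM in all libraries. Of the 6 listed, Cox5a, Cox5b, Cox6c, Cox7b, Cox7c and Ndufa4, all rose in IP against input in naive mice and in RS mice, and all fell in RS input against naive input. Ndufa4, a late-joining subunit of the complex, was higher by 1.43 ± 0.09 (SE) in naive IP (limma, adjusted p = 9.16e-06) and by 1.97 ± 0.09 in RS IP (adjusted p = 1.47e-06). Cox7c, a small membrane subunit, was 749 and 742 TPM in naive input and 340 and 456 TPM in RS input, a change of -0.92 ± 0.12 (adjusted p = 0.00215). Their medians were 1.14 and 1.95 in the IP to input comparisons of naive and RS mice, beside -0.32 and -0.42 over all genes, and -0.71 in RS against naive input.

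Between RS and naive IP none of the 6 passed the test by limma, and 0 had an unadjusted p under 0.05, with changes of -0.17 ± 0.09 (SE) for Ndufa4 to 0.05 ± 0.07 for Cox6c and adjusted p of 0.363 to 0.959. The difference between the IP to input changes was called for 5 of 6, Cox5a missing at an adjusted p of 0.055. In each comparison the changes of the ubiquitous forms lay in the range of those of the other nuclear subunits, except that of Cox8a in RS against naive IP (0.07). For Cox5a, removal of the length and GC trend turned the changes to -0.03 in naive IP, -0.05 in RS IP and 0.02 in RS input, so its direction depends on that step.

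Further family members and the assembly factors gave a mixed picture. Cox7a2l, a relative of Cox7a2 that joins complexes into supercomplexes, stood at 347 to 519 TPM, Cox7b2 at 1.50 to 4.37 TPM, and Cox8c was listed at 0 in all 8 libraries. Of 3 mitochondrially encoded core subunits listed, 0 were found among the symbols of the files used here, so they were not analysed. Of 23 assembly factors, 11 rose and 9 fell in naive IP against input, 13 rose and 7 fell in RS IP, none passed between RS and naive IP, and 12 fell in RS input with none rising (limma). At an unadjusted p under 0.05, 3 were higher and 1 lower in RS IP, and 3 were higher in RS input. Cox14, Cox16 and Cox17, small assembly factors, rose by 1.24 ± 0.05, 0.81 ± 0.08 and 0.82 ± 0.07 (SE) in naive IP (adjusted p = 2.62e-06, 5.06e-05 and 3.92e-05), whereas Coa5 fell by 1.45 ± 0.06 (adjusted p = 3.54e-06). These named factors had the largest moderated statistics of the list in these libraries, so their p-values are not those of unselected genes. The list's median was 0.00 in naive and 0.37 in RS mice, above the medians of all genes but below those of the other nuclear subunits.

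Because Cox8b was high in RS IP alone, markers of cell types that could bring RNA into the dissection were set beside it. Genes of choroid plexus epithelium, the secretory lining of the ventricles next to the septum, were in part of a like course, with the highest mean in RS IP for 9 of the 12 listed. Ttr, the transthyretin that this epithelium secretes, stood at 7.62 and 9.32 TPM (naive input), 259 and 309 (RS input), 29.0 and 29.1 (naive IP) and 2009 and 2029 (RS IP). Folr1, its folate receptor, stood at 0.823 and 0.428, 6.78 and 11.2, 1.86 and 1.11, and 40.0 and 32.3 TPM. Both were far higher in both RS IP libraries than in any other, as Cox8b was. The other 3, Enpp2, Clic6 and Aqp1, had their highest mean in RS input, at 196, 7.73 and 1.21 TPM, against 182, 6.51 and 1.01 TPM in RS IP. The highest mean lay in RS IP for 0 of 7 ependymal genes, 1 of 8 meningeal fibroblast genes (Igf2) and 1 of 5 blood cell genes (Hba-a2). By limma 0 genes of these lists were called higher in RS than in naive IP, and 1 meningeal gene, Ptgds, was called lower.

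The 12 genes of that list summed to 124 to 137 TPM (naive input), 503 to 552 (RS input), 113 to 116 (naive IP) and 2304 to 2313 (RS IP), and none was at 0 throughout. By limma 10 of 12 were called higher in RS IP than in naive IP and 7 of 12 in RS input than in naive input, with 0 lower in either, also at an unadjusted p under 0.05. Per 100 TPM of Ttr there were 0 and 30.2 TPM of Cox8b in naive input, 4.24 and 4.29 in RS IP, 3.00 and 1.33 in RS input, and 7.18 and 16.5 in naive IP, so the ratio was close between the RS IP pools and wider elsewhere. The part of choroid plexus RNA in the level of Cox8b was not tested.

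**Figure D5:**
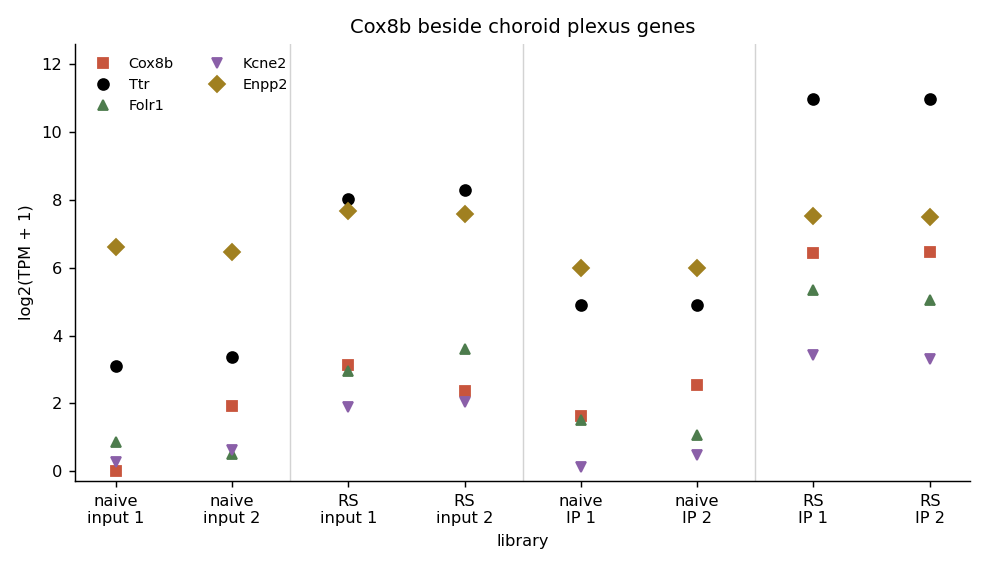
Cox8b and 4 choroid plexus genes in each of the 8 libraries as log2(TPM + 1). Cox8b (red squares), Ttr, Folr1 and Kcne2 have their highest values in the 2 RS IP libraries, where Ttr reaches 2009 and 2029 TPM and Cox8b 85.3 and 87.1 TPM.

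Of the tissues for which the restricted forms are known, male germ cells gave little signal of their own and fat little apart from Cidea. Some striated muscle genes were well above 1 TPM. Of 6 fat genes, 5 were below 1 TPM in all libraries, and Ucp1, the uncoupling protein that defines brown fat, was listed at 0 in all 8. The other fat gene, Cidea, stood at 12.5 to 18.0 TPM, with its highest mean in naive input. Of 8 male germ cell genes, 7 were below 1 TPM throughout, the list summed to 0 to 2.17 TPM, and Pgk2, Tnp1 and Akap4 were listed at 0, while Cox6b2 reached 31.7 TPM. Of 12 striated muscle genes, Actc1, Myh6, Ckm and Ckmt2 were below 1 TPM throughout and the list summed to 79.0 to 89.6 TPM without a step between groups. The level sum held genes that differed in opposite directions, since of the 6 muscle genes that passed the filter, 2 were called higher and 2 lower in RS IP against input (limma). Acta1, the actin of skeletal muscle, was 31.5 and 31.3 TPM (naive input), 26.3 and 22.9 (RS input), 40.4 and 33.8 (naive IP) and 41.7 and 39.5 (RS IP). This is the order of group means seen for Cox6b2 and Cox7a1, and also for Cox6a2 and the ubiquitous Cox8a. Acta1 was called lower in RS input (-0.35 ± 0.10 SE, adjusted p = 0.0392) and higher in RS IP against input (0.70 ± 0.10, adjusted p = 0.000367). Among the muscle genes that passed the filter, Acta1 alone had its highest mean in RS IP. Myh7 (-0.75 ± 0.10) and Casq1 (-0.70 ± 0.23) were called lower in RS IP against input and had their highest mean in RS input. Tnnt2 had its highest mean in naive input, and Mb and Myl2 had theirs in naive IP. The part of muscle RNA in the levels of Cox6b2 and Cox7a1 was not tested.

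The summed level of pericyte and smooth muscle genes had the same order of groups as Cox6b2 and Cox7a1. That order is not particular to these genes, since the group means of Cox6a2, Cox8a, Cox6c, Cox14 and Cox17 had it as well. The 16 genes, of which 11 passed the filter, summed to 184 to 189 TPM in naive input, 138 in both RS input pools, 193 to 195 in naive IP and 222 to 234 in RS IP. Tagln, a smooth muscle actin-binding protein, stood at 26.2 and 22.2, 15.1 and 14.0, 36.0 and 34.3, and 47.8 and 47.1 TPM in that order. The pericyte genes Rgs5 (0.388 to 3.89 TPM) and Pdgfrb (2.00 to 5.26 TPM) were low and not highest in RS IP, and 4 of the 16, Tagln, Acta2, Cnn1 and Myl9, had their highest mean there. By limma 2 of the list were called higher and 1 lower in RS IP against naive IP, and 5 were called lower in RS input. The part of these cells in the levels of Cox4i2, Cox6b2 and Cox7a1 was not tested.

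Genes of parvalbumin interneurons were set beside Cox6a2. The 7 genes all passed the filter and summed to 237 to 248 TPM (naive input), 275 to 291 (RS input), 466 to 469 (naive IP) and 541 to 552 (RS IP). Pvalb itself stood at 73.8 and 74.2, 88.8 and 102, 195 and 209, and 310 and 301 TPM. Like Cox6a2 it was lowest in input and highest in RS IP, but in RS input it lay above naive input, where Cox6a2 lay below. Of the other genes of the list Kcnc1 alone also had its highest mean in RS IP, while Erbb4, Kcnc2, Lhx6 and Syt2 had theirs in RS input and Nxph1 in naive IP, at 172 TPM against 147 TPM in RS IP. By limma 1 of the 7, Pvalb, was called higher in RS than in naive IP and 0 lower, with 2 higher and 0 lower at an unadjusted p under 0.05. The part of these neurons in the level of Cox6a2 was not tested.

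Each member was compared with the 9818 genes of at least 5 TPM on average, by Pearson's r of log2(TPM + 1) over the 8 libraries, as a description in which the group structure and the libraries are shared. The members themselves were left out of the genes searched, so no member could be named as a neighbour of another. The nearest to Cox8b were Sstr2 (r = 0.986), a somatostatin receptor, Ucp2 (0.976), a mitochondrial carrier, and Cnn3 (0.956). Sstr2 averaged 50.7 TPM in input and 53.2 in IP of naive mice and 66.6 and 110 TPM in those of RS mice, a far smaller step than that of Cox8b. The nearest to Cox6b2 was Tagln (0.992), to Cox7a1 Aifm3 (0.983) and to Cox6a2 Hist2h2aa1 (0.996). Cox4i2 had no close neighbour, with Gpx8 nearest at 0.907.

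The ubiquitous forms had nearer neighbours, among them genes of the respiratory chain and the ribosome. Cox6a1 lay nearest to Cox17 (0.999), the copper chaperone of the complex, and Uqcr11 (0.999), a subunit of complex III. Ndufa11, a subunit of complex I, was nearest to Cox6b1. Cox8a lay nearest to Rps29 (0.999) and Cox7a2 to Tma7 (0.999), and Rps28, a small ribosomal protein, was among the 3 nearest to both Cox4i1 and Cox7a2. No restricted form had a subunit of the respiratory chain among its 3 nearest genes, in a search that left out the members.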

How the data were processed

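The authors deposited 1 table per library with 1 value for each of 24972 gene symbols. The deposited columns carry the name FPKM, but each summed to 1000000 to within 7.5e-05, so the values were used as TPM. Such a sum does not show how transcript length was scaled. The labels name STAR and DESeq2 and the study names TopHat and Cufflinks, with build mm10 in each case, and which of them made the columns is not stated. The cDNA came from a SMARTer low-input kit, and the depth is unknown.

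In all, 26 symbols turned into dates by a spreadsheet (0.148% to 0.283% of TPM) were left out. The 14365 genes with at least 1 TPM in at least 2 of 8 libraries were kept. A limma model (version 3.58.1, R 4.3.3) of log2(TPM + 1) took the 4 group means from the 8 libraries (eBayes with trend; 4 residual and 3.92 prior degrees of freedom), for 5 comparisons. The two-sided p-values were adjusted by Benjamini-Hochberg over all genes kept, and genes were called at an adjusted p under 0.05. Changes are on the log2(TPM + 1) scale, which understates those of low genes. The spread is that between pools, with 2 replicates per group in the sources used here; the labels and methods speak of 3. The fit was tested on simulated data.

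The members, the gene lists and the rule for naming genes (all members, all nuclear subunits outside the pairs and further isoforms, up to 4 genes of any other list by moderated statistic) were chosen with earlier results of these data known. Per the labels, input and IP of a number within a condition share a lysate. Differences between pools in input and IP had a Pearson r of -0.0637 (naive) and -0.0457 (RS), and this pairing was fitted as an alternative block. Other alternatives were pseudocounts of 0.1 and 5, no filter, median-of-ratios scaling, removal of the trend with length and GC content (98.1% of symbols matched), eBayes without trend and each library left out.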

Additional observations from a re-analysis of the deposited data

Results flagged for a closer look

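The difference between the IP to input changes of RS and naive mice was flagged for 7 of the 10 members. These were called higher in the main fit, beside 3.29% of all genes called higher and 3.46% lower. With input and IP of a pool kept as a block, Cox6b2 alone was called, as without the filter, after the length and GC correction and without the trend in eBayes. The difference was 1.91 on the log2 scale for Cox7a1, 1.85 for Cox6b2, 0.73 for Cox8a, 0.72 for Cox7a2, 0.61 for Cox6b1, 0.47 for Cox6a1 and 0.45 for Cox4i1. The members were chosen with these results known, so the calls and values are a description and not a test. Cox8b had a larger difference, 2.59, that was not called, with its wider error. The 5 ubiquitous forms reached their difference through lower RS input levels with IP levels that were close, whereas Cox6b2 and Cox7a1 were lower in RS input and higher in RS IP.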

How the results depend on the processing

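The direction of the fitted changes was kept for the members under every alternative run, except for Cox4i2 and Cox6a1. Cox4i2 turned after removal of the length and GC trend in IP against input (-0.047 in naive, -0.17 in RS mice, -0.12 for their difference). With single libraries left out, its difference ran from -0.066 to 0.41, its change in RS input from -0.12 to 0.36, and that of Cox6a1 in RS against naive IP from -0.032 to 0.019. Removal of that trend also turned Cox5a (-0.032 in naive IP, -0.050 in RS IP and 0.019 in RS input) and Coa5 in RS input (-0.083, and -0.033 under median-of-ratios scaling). Over all members, comparisons and alternatives, calls were lost 88 times and gained 10 times.

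Members called for the difference between conditions fell from 7 to 1 without a filter, after the length and GC correction, without the trend in eBayes and with the replicate block of pools. Over all genes, that comparison had 473 higher and 497 lower calls, against 121 and 125 without a filter, 191 and 135 after the correction, 24 and 11 without the trend, and 51 and 27 with the replicate block, while median-of-ratios scaling left 194 lower; the cause was not tested. Outside that comparison the block changed no call of a member other than those of Cox8b in naive and Cox4i2 in RS mice. With single libraries left out the counts were 11 to 700 higher, 11 to 658 lower and 1 to 7 members.

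In RS against naive IP, 1 member was called with 0.1 TPM added, without a filter and without the trend, and 0 to 2 with single libraries left out, where all genes gave 85 to 299 higher and 11 to 83 lower calls. Without the trend all genes gave 178 and 30, and lower calls were 72 under median-of-ratios scaling and 112 after the correction. In RS input, 1 member (Cox8b) was called higher with 5 TPM added and 0 to 1 with single libraries left out, where all genes gave 1103 to 2750 higher and 690 to 1160 lower calls. Scaling gave 1111 and 1789, and the correction 908 higher. In IP against input, scaling gave 4446 higher and 4105 lower calls in naive and 4804 and 4472 in RS mice, and the correction 4260 lower in naive and 3856 higher and 4531 lower in RS mice. With 5 TPM added, the differences in log2 isoform ratio in RS mice between IP and input were -0.83 for Cox4, 0.24 for Cox6a (0.42 with 0.1 added), 0.17 for Cox6b and 0.35 for Cox7a. Between RS and naive mice that of Cox8 in the IP was 3.38, that of Cox6b in the input -0.054, and that of Cox8 in the input 4.07 with 0.1 added. Without a single library, ratios turned for Cox7a in the input (RS minus naive, -0.61 to 0.27, and 0.14 with 5 added) and in naive mice between IP and input for Cox7a (-0.65 to 0.23) and Cox8 (-0.27 to 1.63, and -0.02 with 5 added). Depth is unknown, so levels of a few TPM, as of Cox4i2 and of Cox8b outside RS IP, rest on the spread of 2 pools alone.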

Other observations

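Other mitochondrial proteins with paired forms were listed beside the cytochrome oxidase pairs, and 6 of the 8 genes passed the filter. The carriers Slc25a4 and Slc25a5, which exchange ADP and ATP, stood at 1302 to 1843 TPM and 1108 to 1286 TPM, so neither form was rare. Their changes between RS and naive IP were 0.09 ± 0.04 and 0.01 ± 0.04 (SE), and neither was called. Cyct, the testis form of cytochrome c, and Ckmt2, the muscle form of mitochondrial creatine kinase, were below 1 TPM in all 8 libraries, whereas Cycs and Ckmt1 stood at 244 to 464 TPM and 348 to 476 TPM. Ndufa4l2, the paired form of Ndufa4 that is known to rise in low oxygen, stood at 0.693 to 2.29 TPM. Of the 6 genes, 2 were called higher and 3 lower in IP against input in both naive and RS mice, and none between RS and naive IP by limma, where 1 was higher at an unadjusted p under 0.05.

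Of 16 genes listed as regulators of Cox4i2 or as targets of low oxygen, all passed the filter, and by limma 1 was called higher and 1 lower in RS IP against naive IP. In RS input 4 were called higher and 2 lower. Chchd2, a factor known to act on the Cox4i2 promoter, changed by -0.11 ± 0.05 (SE) in the IP and fell by 0.40 ± 0.05 in the input.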
